A study of Mus musculus with 16 samples.

Results

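Dlk1, Meg3, H19 and Igf2 were examined in hematopoietic stem cells of young and old mice through all ChIP-seq (chromatin immunoprecipitation followed by sequencing) peaks that touched a pair of windows on the mouse build mm9. The Dlk1-Meg3 window was chr12:110675000-110825000 and the H19-Igf2 window was chr7:149745000-149865000. Of 610361 peaks and islands in the 16 deposited lists, 51 touched these windows, 21 in the first and 30 in the second.

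The cells were wild-type C57BL/6 bone marrow cells of the SP-KSL-CD150+ gate, which joins dye efflux to surface markers of long-term stem cells. Mice were 4 months old (young) or 24 months old (old), untreated as far as the labels say. H3K4me3, a mark of active promoters, was mapped in 2 young and 2 old libraries, while H3K27me3, the Polycomb mark of silenced genes, and H3K36me3, a mark of transcribed gene bodies, were each mapped in 3 young and 3 old libraries. Each label counts its library as technical, tied to a biological replicate by number, and names no animals or pools. The p-values thus describe library-to-library spread, which may be technical. Replicates keep their label numbers: 1 to 3 for H3K27me3, 4 to 6 for H3K36me3, 7 and 8 for H3K4me3. Sample titles carry a further number, from 16 to 21, of unstated meaning. No annotation of mm9 was used, so the cell type could not be checked against marker genes.

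These genes are imprinted, which means that 1 of the parental copies is expressed and the other silenced. At the first locus Dlk1, a membrane protein related to Notch ligands, is made from the paternal copy and Meg3, a long noncoding RNA, from the maternal copy. At the second Igf2, a fetal growth factor, is paternal and H19, a long noncoding RNA that also carries a microRNA, is maternal. Each pair is governed by a control region that is methylated on the paternal copy, and both loci have been linked to quiescence of adult blood stem cells. A peak list separates neither the parental copies nor fewer marked cells from less mark per cell.

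Genes were placed by order alone. In RefSeq on GRCm38.p6, coordinates rise from Dlk1 past the noncoding Gm34081 and Gm34017 to Meg3, and from H19 past the noncoding Gm33148 to Igf2, which shares its ground with the antisense RNA Igf2os. Farther on come Rtl1 after Meg3 and Ins2 after Igf2os, and whether these lay in the mm9 windows was not checked. Regions are therefore called by the end of the window in which they lay, and their bounds are on mm9. Promoter sequences were printed from RefSeq, with the build GRCm38.p6, to show the CpG content (CG pairs, in capitals) of annotated starts. The sequences were not compared by position with the marks, which are on mm9. They run from 250 bases before to 50 after a start, and 7 starts of Dlk1, Meg3 and Igf2 were matched. H19 had no entry.

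The Dlk1 start (chr12:109452573-109452872, plus strand) and the first Meg3 start (chr12:109540746-109541045, plus strand) are shown because H3K27me3 length separated the ages at the Dlk1 end and overlapped between them at the Meg3 end. Among the 32841 RefSeq promoters the median was 7 CG pairs.
Dlk1 start: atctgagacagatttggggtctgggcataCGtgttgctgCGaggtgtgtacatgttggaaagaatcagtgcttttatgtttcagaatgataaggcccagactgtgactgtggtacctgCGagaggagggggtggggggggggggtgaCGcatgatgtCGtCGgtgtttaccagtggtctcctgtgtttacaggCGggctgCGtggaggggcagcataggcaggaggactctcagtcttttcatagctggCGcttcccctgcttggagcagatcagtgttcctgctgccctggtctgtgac
Meg3 first start: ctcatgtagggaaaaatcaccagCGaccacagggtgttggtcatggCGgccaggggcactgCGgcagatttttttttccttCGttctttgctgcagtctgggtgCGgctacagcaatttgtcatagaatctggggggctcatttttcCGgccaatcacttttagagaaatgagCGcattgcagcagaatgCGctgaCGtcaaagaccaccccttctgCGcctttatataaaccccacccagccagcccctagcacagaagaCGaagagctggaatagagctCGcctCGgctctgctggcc

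The Dlk1 start held 9 CG pairs, a number reached by 45.8% of promoters, and the first Meg3 start held 13, reached by 37.9%. Both thus stood above the median. The Meg3 sequence also had TGACGTCA, the letters of a cyclic AMP response element, 57 bases before the start, and 1.79% of promoters hold it on either strand. The letters of a TATA box (TATAAA, held by 13.6% of promoters) were found in it on both strands, in matches that overlap, 25 and 29 bases before the start. The letters of a CCAAT box, held by 37.4% of promoters, lay 100 bases before the start. The Dlk1 sequence held none of these 3 motifs on either strand, nor GGGCGG, a letter run bound by Sp1 that 35.7% of promoters hold on either strand.

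A pair of Igf2 starts shows the range within 1 gene. The first (chr7:142666767-142667066, minus strand) held 2 CG pairs, a number that 85.9% of promoters reach, and the third (chr7:142658755-142659054, minus strand) held 24, which 19.98% reach. The Sp1 letters lay 17 bases before that start, on the opposite strand, and none of the motifs searched was in the first.
Igf2 start 1: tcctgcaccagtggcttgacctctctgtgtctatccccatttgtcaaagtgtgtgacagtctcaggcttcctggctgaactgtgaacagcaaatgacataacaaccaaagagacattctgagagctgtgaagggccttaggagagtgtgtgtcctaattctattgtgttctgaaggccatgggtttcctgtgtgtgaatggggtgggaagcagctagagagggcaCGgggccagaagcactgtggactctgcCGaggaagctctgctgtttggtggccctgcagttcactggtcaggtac
Igf2 start 3: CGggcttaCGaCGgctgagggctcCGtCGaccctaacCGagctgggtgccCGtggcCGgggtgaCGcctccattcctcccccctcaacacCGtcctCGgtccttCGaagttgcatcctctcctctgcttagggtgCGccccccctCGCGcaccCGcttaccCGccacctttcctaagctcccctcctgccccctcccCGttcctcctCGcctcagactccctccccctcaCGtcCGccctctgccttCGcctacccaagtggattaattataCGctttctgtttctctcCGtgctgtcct
Igf2 starts 2 and 4 held 14 and 7 CG pairs.

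Some libraries stood apart. Only 10.3% of the length under islands of young H3K27me3 replicate 1 lay under islands of any other library of the mark, against 70.6 to 86.2% for the other 5. Young H3K36me3 replicate 4 covered 5.90 Mb, against 41.6 to 138 Mb in the other 5. H3K27me3 values are therefore also given without young replicate 1. Read depth was unknown, and the length under peaks depends on it. H3K4me3 lists covered 26.9 to 32.5 Mb and H3K27me3 lists 123 to 179 Mb.

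At the Dlk1 end, H3K27me3 covered a longer stretch in every old library than in any young one. The merged region, chr12:110683801-110699400, was covered over 5400 bp in young replicate 2 and 9400 bp in young replicate 3, and over 12400, 13800 and 15600 bp in old replicates 1, 2 and 3. Young replicate 1 had no island there. The ages did not overlap. Every old island began farther from Meg3 than either young one, with starts between 110683801 and 110685401 in old and at 110688001 and 110688601 in young libraries. On the other side the end at 110697400 was shared by young replicate 3 and old replicate 1, while young replicate 2 ended at 110694000 and old replicates 2 and 3 at 110699200 and 110699400.

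Without young replicate 1 the mean was 13933 ± 1604 bp in old (SD, n = 3) and 7400.0 ± 2828 bp in young libraries (SD, n = 2), a ratio of 1.88. An exact two-sided permutation test gave p = 0.1, the smallest that 3 against 2 libraries allow. With all 6 libraries the young mean was 4933 ± 4717 bp (SD, n = 3), with p = 0.1 by the same exact test, again the smallest possible. Within title number 18 the length was 5400 bp in young and 13800 bp in old, and within title number 20 it was 9400 and 15600 bp. Of all 26370 H3K27me3 regions tested without young replicate 1, 9.12% had every old library above both young ones, and with all 6 libraries this held for 7.48% of 30998 regions. The pattern at the Dlk1 end was thus shared with many regions of the genome.

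The fit across the genome did not call the Dlk1 end. In limma the log2 difference in covered length, old minus young on log2(bp + 200), was 0.94 ± 0.36 (SE) without young replicate 1, with an unadjusted p of 0.0437 and an adjusted p of 0.417. With all 6 libraries it was 2.67 ± 1.76 (SE), with an adjusted p of 0.552 by limma. Limma called 0 of 30998 H3K27me3 regions (0%) at an adjusted p under 0.05, and 1368 had an unadjusted p under 0.05, of which 1178 were longer in old libraries. The median log2 difference over all tested regions was 0.48 with all libraries and -0.002 without young replicate 1. In that second fit 2889 of 26370 regions had an unadjusted p under 0.05, 1378 longer in old and 1511 longer in young libraries, so the lean towards old was not kept.

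The islands at the Dlk1 end ranked high in their lists. Each list gives a score per island in an unstated unit, so only its percentile, the share of islands of the list with a lower score, is read here. For young replicates 2 and 3 it was 82.6 and 93.8, against 97.4, 88.9 and 97.4 for old replicates 1, 2 and 3. The lowest old percentile lay below the higher young one, so scores overlapped between the ages where lengths did not. The library of that lowest value, old replicate 2, had the shortest list, with 17752 islands.

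**Figure D1:**
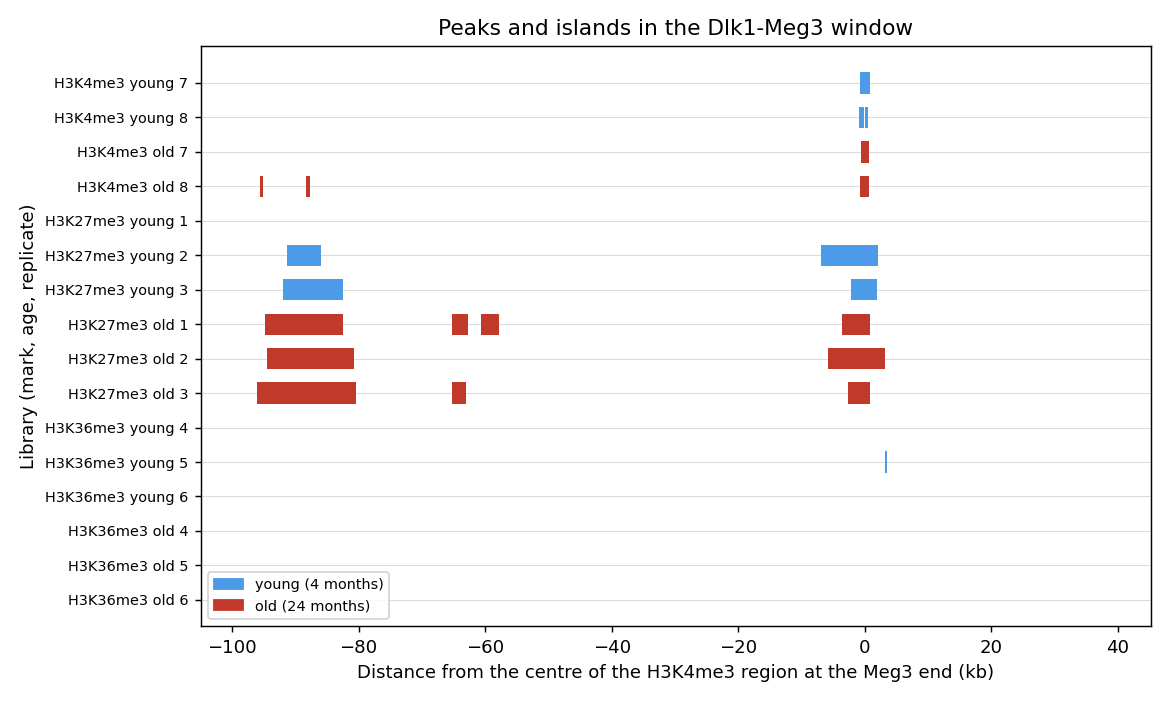
Each row is a library and each bar a peak or island of the Dlk1-Meg3 window, placed by its distance in kb from the centre of the H3K4me3 region at the Meg3 end (blue young, red old). The islands at the Dlk1 end are 12400 to 15600 bp long in the 3 old libraries and 5400 and 9400 bp long in young replicates 2 and 3.

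H3K4me3 was scarce at the Dlk1 end. Old replicate 8 alone had peaks there, of 448 bp at chr12:110684292-110684739 and 615 bp at chr12:110691562-110692176. Their scores were at percentiles 13.5 and 2.94 of that list, which was the longest for the mark with 19923 peaks. The second of them lay wholly under H3K27me3 islands of all 5 libraries other than young replicate 1, and the first under an island of old replicate 3 only. Neither region was tested across the genome, since each was held by 1 library.

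At the Meg3 end, H3K4me3 and H3K27me3 lay on the same sequence at both ages. The H3K4me3 region, chr12:110778992-110780718, was held by all 4 libraries, over 1689 and 1333 bp in young replicates 7 and 8 and over 1166 and 1426 bp in old replicates 7 and 8. The ages overlapped. H3K27me3 islands of young replicates 2 and 3 and old replicate 2 covered 100% of this region, and those of old replicates 1 and 3 covered 93.2%. Among 14489 H3K4me3 regions held by all 4 libraries, islands of these 5 libraries each covered at least 90% of the region in 6.78%. Scores of the H3K4me3 peaks were of middling to low rank, with percentiles of 24.4 and 10.03 in young and 35.6 and 34.9 in old libraries. By limma the log2 difference of the H3K4me3 region was -0.19 ± 0.19 (SE), with an adjusted p of 0.979.

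The H3K27me3 region over it, chr12:110773001-110783000, differed by title number more than by age. It was covered over 9000 bp in both libraries of title number 18 (young replicate 2 and old replicate 2). In young replicate 3 and old replicates 1 and 3, the other lists with islands there, it was covered over 4200, 4400 and 3400 bp. The lists of title number 18 held 18741 and 17752 islands and those other 3 held 38609 to 47197, and the part of list structure in this length was not tested. Without young replicate 1, which had no island, means were 5600.0 ± 2987 bp in old (SD, n = 3) and 6600.0 ± 3394 bp in young libraries (SD, n = 2), and the exact permutation p was 0.8. The log2 difference by limma was -0.25 ± 0.65 (SE), adjusted p = 0.964, and with young replicate 1 it turned to 1.41, adjusted p = 0.831. The separation of the ages at the Dlk1 end was thus not seen at the Meg3 end of the same libraries, and the difference between the ends was not tested.

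Between the ends, short islands appeared in old libraries alone. Old replicates 1 and 3 covered 2600 and 2200 bp of chr12:110714601-110717200, and old replicate 1 covered 2800 bp of chr12:110719201-110722000. Old replicate 2 and all 3 young libraries had 0 bp in both. Scores were below the middle of their lists, at percentiles 31.1 and 31.9 for the first region and 45.8 for the second. The first region entered the fit only through old replicates 1 and 3, the libraries that held it. It had an adjusted p of 0.552 in limma. Without old replicate 2, when limma called 2766 regions genome-wide, the adjusted p of the first region was 0.0411. That setting leaves out the old library with 0 bp there. These p-values thus give no support for a difference. The share of regions held by old libraries alone was not computed.

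Over the whole Dlk1-Meg3 window, H3K27me3 covered 22067 ± 808 bp in old libraries (SD, n = 3) and 14000.0 ± 566 bp in young replicates 2 and 3 (SD, n = 2). By library the lengths were 14400 and 13600 bp in those young replicates and 22200, 22800 and 21200 bp in old replicates 1 to 3. The exact permutation p was 0.1 without young replicate 1 and 0.1 with it, each the smallest possible, and 0.6 after Benjamini-Hochberg adjustment over the 6 pairs of mark and window. Every old library was thus above every young one, which also held for 10.7% of 12950 pieces of 150 kb covered in at least 2 libraries, and for 14.5% of 11764 such pieces without young replicate 1. Of the difference of 8067 bp without young replicate 1, the Dlk1 end gave 6533 bp. Within title numbers 18 and 20 the differences were 8400 and 7600 bp.

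At the Igf2 end, H3K27me3 covered a long stretch at both ages, and the lengths overlapped. The merged region, chr7:149834201-149857800, was covered over 18000 and 18200 bp in young replicates 2 and 3 and over 17000, 19800 and 15800 bp in old replicates 1 to 3. Young replicate 1 covered 2400 bp. The values of young replicates 2 and 3 lay inside the old range. Without young replicate 1 the means were 17533 ± 2053 bp in old (SD, n = 3) and 18100.0 ± 141 bp in young (SD, n = 2), and the exact permutation p was 0.7. By limma the log2 difference was -0.05 ± 0.20 (SE), adjusted p = 0.964, and 0.89 ± 1.60 (SE), adjusted p = 0.943, with all libraries. The top island had a score percentile of 97.0 in young replicate 2 and 99.2 in young replicate 3, against 99.0, 96.9 and 99.1 for old replicates 1, 2 and 3. These were above those at the Dlk1, Meg3 and H19 ends in each of these lists.

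Inside this stretch lay the H3K4me3 region with the highest score of the windows in each library. Within the whole lists these scores were at percentiles 41.1 and 35.2 in young replicates 7 and 8. In old replicates 7 and 8 they were at 47.6 and 99.3. The region, chr7:149843967-149846510, was held by all 4 libraries. It was covered over 1971 and 2412 bp in young replicates 7 and 8 and over 1674 and 1882 bp in old replicates 7 and 8. Both old lengths were below both young lengths. This held for 14.6% of all 17307 H3K4me3 regions tested, and the reverse for 16.5%. Mean lengths were 2192 ± 312 bp (young) and 1778 ± 147 bp (old; SD, n = 2 each). The exact permutation p was 0.333, which 2 against 2 libraries cannot go below. Limma gave a log2 difference of -0.27 ± 0.14 (SE) with an adjusted p of 0.953. It called 0 of 17307 H3K4me3 regions (0%), of which 1253 had an unadjusted p under 0.05. All 5 H3K27me3 libraries other than young replicate 1 covered 100% of the region. The starts of Igf2, Igf2os and Ins2 could not be told apart as its source by position on mm9. Old replicate 8 had a further peak of 581 bp at chr7:149849848-149850428, at percentile 0.0803 of its list and also wholly under H3K27me3 in those 5 libraries.

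**Figure D2:**
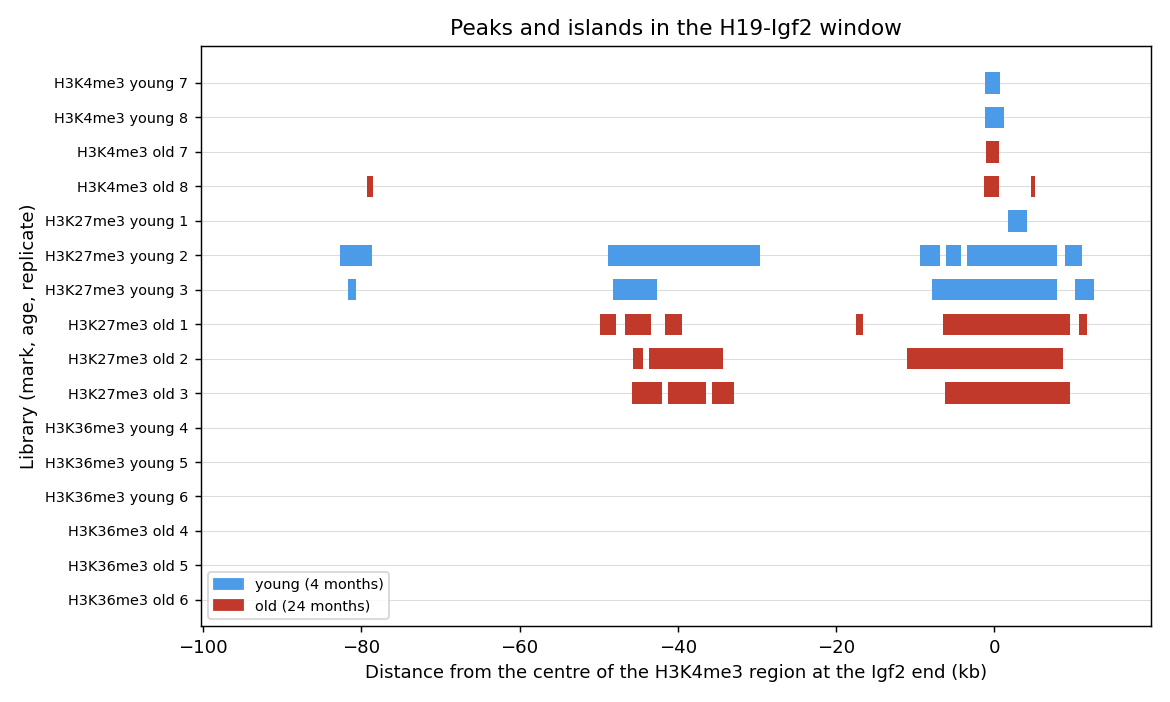
Each row is a library and each bar a peak or island of the H19-Igf2 window, placed by its distance in kb from the centre of the H3K4me3 region at the Igf2 end (blue young, red old). The Igf2 end has islands in all 6 H3K27me3 libraries and H3K4me3 peaks in all 4 libraries of that mark, and the H19 end has islands in young replicates 2 and 3 only.

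At the H19 end, H3K27me3 islands were short, of low rank and present in young libraries only. They covered 4000 bp of chr7:149762601-149766600 in young replicate 2 and 1000 bp in young replicate 3, and 0 bp in young replicate 1 and in the 3 old libraries. Their scores were at percentiles 25.4 and 4.01. With young replicate 1 the ages overlapped at 0 bp. Without it both young libraries were above all old ones, which held for 10.7% of the 26370 regions tested. The exact permutation p was 0.4 with all libraries and 0.1, the smallest possible, without young replicate 1. The adjusted p in limma was 0.552 with all libraries and 0.224 without young replicate 1, with an unadjusted p of 0.0185. The region entered the fit only through young replicates 2 and 3, the libraries that held it. These p-values thus give no support for a difference. H3K4me3 was found at the H19 end in old replicate 8 alone, over 778 bp at chr7:149765970-149766747, at percentile 24.8. The island of young replicate 2 covered 81.1% of that peak.

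Between the H19 and Igf2 ends, H3K27me3 formed a broken stretch whose lengths overlapped between the ages. The region chr7:149795401-149815600 was covered over 19200 bp as 1 island in young replicate 2 and over 5600 bp as 1 island in young replicate 3. In old replicates 1, 2 and 3 it was covered over 7400, 10600 and 11400 bp in 3, 2 and 3 islands. The old values lay between those of young replicates 2 and 3, and without young replicate 1, which had 0 bp, the exact permutation p was 0.8. The limma log2 difference was -0.11 ± 0.59 (SE), adjusted p = 0.967, without that library and 1.80 ± 1.80 (SE), adjusted p = 0.740, with it. An island of 800 bp at chr7:149827801-149828600 was found in old replicate 1 only.

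**Figure D3:**
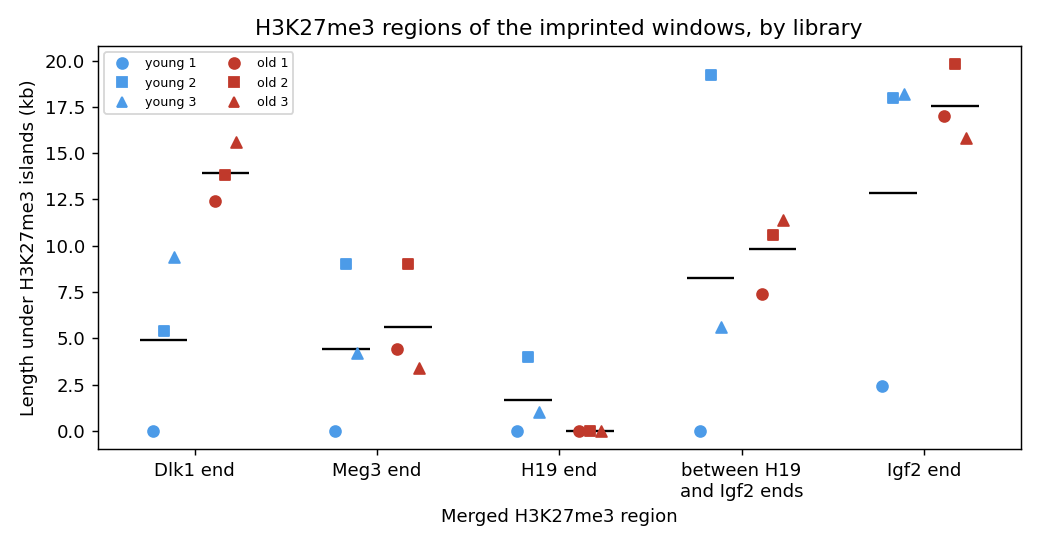
Length in kb under H3K27me3 islands (vertical axis) in 5 merged regions of the windows, 1 point for each library (blue young, red old, shape for the replicate), with a bar at the mean of the 3 libraries of an age. At the Dlk1 end the old libraries lie at 12400 to 15600 bp and the young at 0 to 9400 bp. Every old library was likewise above every young one in 7.48% of the 30998 H3K27me3 regions tested. At the other 4 regions the ages overlap, at the H19 end only through the 0 bp of young replicate 1.

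Over the whole H19-Igf2 window the direction of the H3K27me3 difference hung on young replicate 1. The lengths were 41200 and 24800 bp in young replicates 2 and 3, 2400 bp in young replicate 1, and 25200, 30400 and 27200 bp in old replicates 1 to 3. Means were 27600.0 ± 2623 bp in old (SD, n = 3) and 22800.0 ± 19477 bp in young libraries (SD, n = 3), or 33000.0 ± 11597 bp in young (SD, n = 2) without replicate 1. The exact permutation p was 0.7 both ways, and 1 after adjustment over the 6 pairs with all libraries. Within title number 18 the old library was lower by 10800 bp and within title number 20 it was higher by 2400 bp.

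**Figure D4:**
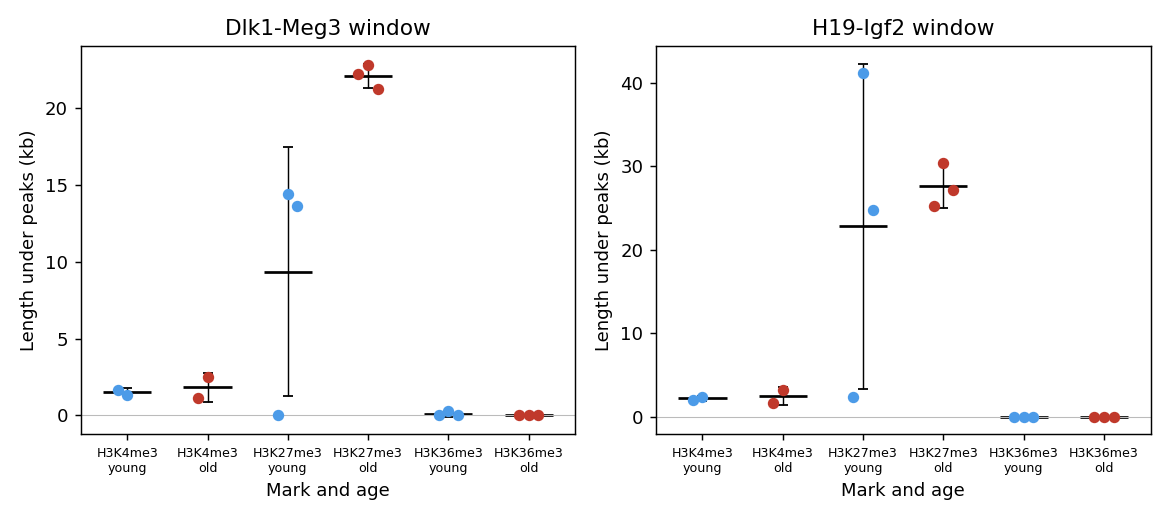
Length in kb under peaks (vertical axis) of each mark in the Dlk1-Meg3 window (left) and the H19-Igf2 window (right), 1 point for each library, with the mean and SD of 2 libraries an age for H3K4me3 and 3 for the other marks. H3K27me3 separates the ages in the Dlk1-Meg3 window, at 21.2 to 22.8 kb in old and 0 to 14.4 kb in young libraries (as do 10.7% of 150-kb pieces of the genome covered in at least 2 libraries), and does not in the H19-Igf2 window.

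H3K4me3 over the whole windows did not separate the ages. In the Dlk1-Meg3 window old libraries had 1828 ± 936 bp and young ones 1511 ± 252 bp, and in the H19-Igf2 window old libraries had 2458 ± 1108 bp and young ones 2192 ± 312 bp (SD, n = 2 each). The exact permutation p was 1 for both, and 0.333 was the smallest possible. Old replicate 8 alone held further peaks, and without it the differences turned to -345 and -517.5 bp.

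H3K36me3 was nearly absent from both windows. The only peak was of 321 bp at chr12:110783048-110783368 in young replicate 5, at percentile 22.0 of its list and 2.33 kb from the H3K4me3 region of the Meg3 end. The other 5 libraries had 0 bp in the Dlk1-Meg3 window and all 6 had 0 bp in the H19-Igf2 window. In young replicate 6 the nearest H3K36me3 peak above the Dlk1-Meg3 window lay 6.09 kb beyond its edge, and in the other 5 lists it lay 881 to 2041 kb beyond. Below that window it lay 402 to 911 kb away. Below the H19-Igf2 window, on the H19 side, it lay 12.5 to 68.6 kb away, except in young replicate 4 (9722 kb). Above that window it lay 314 to 563 kb away. Absence of the mark was common: 48.5% of 150-kb pieces and 53.0% of 120-kb pieces of the genome had no H3K36me3 peak in any of the 6 libraries. Without young replicate 4 the shares were 58.2 and 61.4%. No H3K36me3 region of the windows was held by 2 libraries, so none was tested, and limma called 0 of 45189 regions (0%) elsewhere, 257 of them with an unadjusted p under 0.05.

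Both windows held more H3K27me3 than most of the genome. When the genome was divided into adjoining pieces as long as each window, the median piece had 2400.0 bp under H3K27me3 per 150 kb and 1760.0 bp per 120 kb, as means over the 5 libraries other than young replicate 1. The Dlk1-Meg3 window had 18840.0 bp, a length reached by 13.9% of 17623 pieces, and the H19-Igf2 window had 29760.0 bp, reached by 6.45% of 22026 pieces. Pieces were not filtered for mappable sequence or for genes, which may raise the rank of the windows. No H3K27me3 lay in 21.4% of the 150-kb and 25.2% of the 120-kb pieces in these 5 libraries. For H3K4me3 the windows had 1669 and 2325 bp, reached by 31.9 and 21.2% of pieces.

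**Figure D5:**
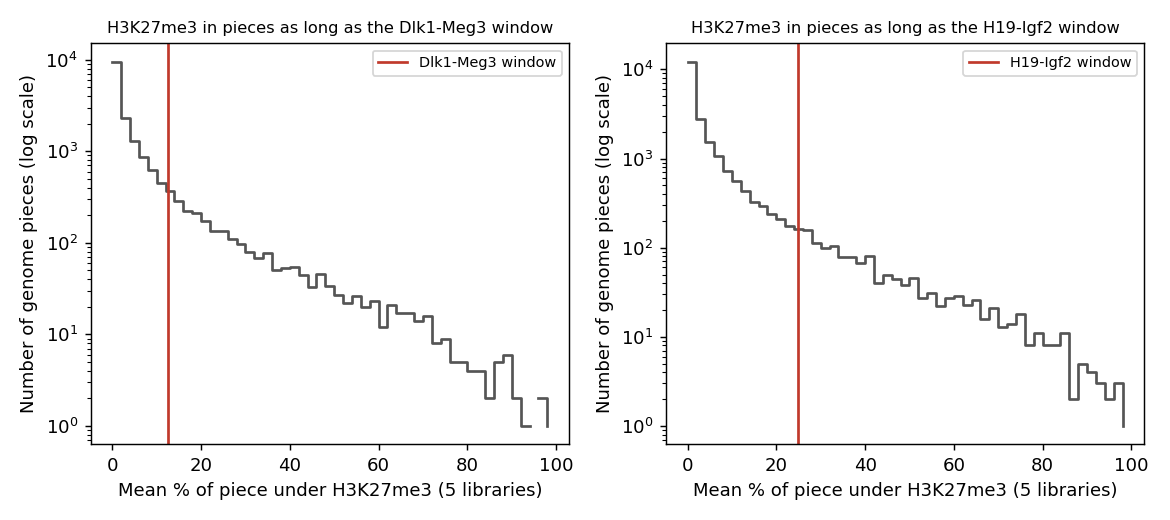
Number of genome pieces (vertical, log scale) by the mean percentage of their length under H3K27me3 in 5 libraries (horizontal), for pieces of 150 kb (left) and 120 kb (right), with a red line at the window of that length. The Dlk1-Meg3 window is reached by 13.9% of pieces and the H19-Igf2 window by 6.45%.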

How the data were processed

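Histone ChIP-seq libraries, 16 in all, were compared through the authors' deposited peak lists, 1 per library. The tools SICER, MACS and CASAVA 1.4 and the build mm9 come from the submitters' processing notes. For the aligner, controls and thresholds the sources used here give nothing. H3K27me3 lists had the layout of SICER islands on a 200-bp grid, the others that of MACS peaks. The score of each peak was used as deposited, with its unit unknown, only as a percentile within its list. Read depth is unknown, so no counting interval is given.

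Covered bp per window were compared by exact permutation tests. Peaks of a mark were merged where they shared 1 bp or abutted, and regions covered in at least 2 libraries were fitted across the genome with limma 3.58.1 (R 4.3.3; trend, log2 of bp + 200, Benjamini-Hochberg, threshold 0.05). The fit was checked on simulated data with a small spread between libraries. That check does not show what the fit could detect at the larger spread of the H3K27me3 regions. Every merged H3K4me3 region of a window was named, and for the other marks every region where a window held 6 or fewer, as both did. Python 3.11.15, numpy 2.4.6 and pandas 2.3.3 were used. Members and windows were chosen with earlier results of these data known. Other imprinted genes were not analysed here, since no mm9 annotation was used. Alternatives were other pseudocounts, filters, centring, merging, 10-kb tiles, scores, scaling, a replicate block and leaving out each library.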

Additional observations from a re-analysis of the deposited data

How the results depend on the processing

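The H3K27me3 difference in the Dlk1-Meg3 window (12733 bp with all libraries) was higher in old under every alternative run, and 8067 to 15267 bp when 1 library was left out. Under the alternatives 58 window values kept their direction, though not always their size, 9 reversed and 5 moved to 0 bp. No exact p of a window could fall below 0.1, so none could cross the threshold of 0.05. The H3K36me3 values of the H19-Igf2 window, 0 bp throughout, are counted among the 58 but have no direction. Of the values of single regions 75 kept their direction and call, 4 reversed and 1 passed the threshold. The last was 3.70 for the first region between the Dlk1 and Meg3 ends, without old replicate 2. That region entered the fit through old libraries alone, and the library left out was the old one with 0 bp there. The H3K4me3 differences, with equal numbers of peaks, turned to -215 bp (Dlk1-Meg3) and -24.5 bp (H19-Igf2), with the stricter score to 0 and -44.5 bp, and within title number 18 to -523 and -297 bp. Leaving out 1 library gave -345 to 978 bp and -517.5 to 1049.5 bp, negative without old replicate 8 and highest without old replicate 7. For H3K27me3 in the H19-Igf2 window this gave -5400 to 14000 bp, negative without young replicate 1 and highest without young replicate 2 (equal numbers of peaks gave 1467 bp), and title number 18 gave -10800 bp. The H3K36me3 difference of -107 bp became 0 bp with the stricter score, with equal numbers of peaks and within title number 16, and -160.5 to 0 bp when 1 library was left out. Without young replicate 1 the log2 differences at the Meg3 end, between the H19 and Igf2 ends and at the Igf2 end turned to -0.25, -0.11 and -0.052, the lowest values with 1 library left out (highest 2.51, 3.19 and 1.36), and centring gave -0.27 at the Igf2 end. The cause was not tested.

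Limma called 16 to 94 H3K4me3 regions when 1 library was left out (94 without old replicate 7, 60 without young replicate 7, 16 without young or old replicate 8) and 0 to 2766 H3K27me3 regions (2766 without old replicate 2), and 0 under all other alternatives, H3K36me3 included. Replicate numbers were not shown to pair libraries. Correlations of same-numbered libraries were 0.00456 for H3K4me3, 0.0208 to 0.143 for H3K27me3 and -0.0311 to 0.0598 for H3K36me3. The same number gave the highest correlation for replicates 1, 2, 4, 7 and 8, and another number did for replicates 3, 5 and 6. Replicates 7 and 8 had the same value and are not separate outcomes. With the replicate block limma called 0 regions of each mark, and the exact p of H3K27me3 in the Dlk1-Meg3 window was 0.25, the smallest that 3 pairs allow. Unknown depth limits every length.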
